A study of Mus musculus with 6 samples.

Results

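The SLC25 family of mitochondrial carriers was followed after reduction of the mRNA for YBX1, a Y-box binding protein that contacts RNA and DNA through a cold-shock domain, in adipocytes made from C3H10T1/2 cells, a mesenchymal line of the mouse. Members were all rows whose symbol is Slc25a followed by digits only, which gave 44 of the 16423 gene symbols in the table of FPKM values (fragments scaled by gene length and library total). The submitters call the differentiated cells brown adipocytes. Differentiation was started with dexamethasone (1 µM), the phosphodiesterase inhibitor IBMX (0.5 mM), insulin (850 nM), triiodothyronine (1 nM), indomethacin (125 nM) and rosiglitazone (1 µM) for 2 days, and the cells were kept for 2 more days in triiodothyronine, insulin and rosiglitazone at those doses. On day 4 the cells received a control siRNA (siNC, genotype label WT) or siRNAs against YBX1 (siYBX1, label YBX1 knockdown), and RNA was taken 48 h later from 3 libraries per group. All 6 libraries thus share the cell line and the differentiation cocktail. No label ties a library to a culture of its own, and p-values cover the spread among these libraries, which may be technical.

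SLC25 proteins are small membrane proteins, most of them in the inner mitochondrial membrane, that exchange nucleotides, phosphate, carboxylates, amino acids, acylcarnitines, cofactors and metals between the matrix and the cytosol. They are imported through the TOM and TIM22 complexes and work by switching between a state open to the cytosol and a state open to the matrix. In adipocytes they link the respiratory chain to ATP supply, export citrate for fatty acid synthesis and bring in acylcarnitines for oxidation. In brown fat the founding uncoupling protein UCP1 belongs to the same family. It was not analysed here.

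Ybx1 mRNA was at 135, 134 and 129.6 FPKM in siNC replicates 1 to 3 and at 59.3, 67.9 and 61.3 FPKM in the siYBX1 replicates, a log2 fold change of -1.07 (SE 0.06, adjusted p = 3.98e-06, limma). Read totals behind the FPKM values lay between 34207232 and 35299269 in the siNC libraries and between 31957411 and 35410308 in the siYBX1 libraries. Of 8 adipocyte markers 7 were abundant enough to test (all but Cebpa, at a mean of 0.399 FPKM) and none was called. Summed levels were 1997 to 2810.1 FPKM in siNC and 2545 to 3009 FPKM in siYBX1, mostly Fabp4 and Adipoq. Of the 7 tested only Plin1 did not overlap between groups. It was lower in siYBX1 (log2 fold change -0.18, adjusted p = 0.0537, limma). Of 8 brown adipocyte markers 5 (Ppargc1a, Dio2, Prdm16, Ppara and Elovl3) lay under a mean of 1 FPKM, and none of the other 3 was called. Smooth muscle and myofibroblast markers rose for all 4 tested of 6 listed (Acta2, Tagln, Myl9 and Actg2), from summed levels of 577 to 647 FPKM to levels of 2011 to 2110.4 FPKM. The untested Cnn1 and Myh11, at means of 0.0868 and 0.111 FPKM, were not raised (siYBX1 over siNC 0.73 and 0.66). Of 4 tested mesenchymal progenitor markers 1 fell (Eng), and summed levels of the 6 in the table were 548 to 567 FPKM in siNC and 502 to 525 FPKM in siYBX1. Of 6 macrophage and leukocyte markers 5 lay under 1 FPKM in the mean, and all 3 endothelial markers in the table did. The macrophage and leukocyte sum (10.9 to 24.4 FPKM in siNC and 6.92 to 11.2 FPKM in siYBX1) was almost wholly Cd68. Cd68 was at 24.3, 10.8 and 12.8 FPKM in siNC replicates 1 to 3 and at 6.80, 9.47 and 11.1 FPKM in siYBX1. Its groups overlap, and it was not called (adjusted p = 0.0681, limma). In these bulk samples fewer cells of a type and less RNA per cell cannot be told apart, and the part of any cell type in the carriers' values was not tested.

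The siNC replicate 1 library stood apart from the other controls, over all genes and for the carriers. Its median absolute deviation from the mean of the other controls was 0.109 on the log2(FPKM + 1) scale over the 35 tested members, against 0.046 to 0.068 for each of the other 5 libraries against the rest of its group. Over all tested genes the same measure was 0.098 for siNC replicate 1 and 0.060 to 0.074 for the others. It gave the lowest control value for 16 of these members and the highest for 14. Adipocyte markers were low in the same library. Fabp4, a fatty acid binding protein, was at 1136 FPKM there and at 1665 and 1642 FPKM in siNC replicates 2 and 3, and Adipoq, the adipokine adiponectin, at 468 against 707 and 676 FPKM. Values without this library are given for some of the members whose call or size it moves.

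The levels of the family covered a wide range. Of 44 members 5 had a mean of at least 100 FPKM, 16 lay between 10 and 100 FPKM, 14 between 1 and 10 FPKM, and 9 under 1 FPKM. FPKM is per length, so members can be ranked by it. The order at the top was Slc25a5, Slc25a4, Slc25a3, Slc25a1 and Slc25a17, and these 5 held 72.9% to 76.5% of the family's summed FPKM in each library. Slc25a5 was above Slc25a4 in each of the 6 libraries, with means of 434 ± 62.2 and 379 ± 23.7 FPKM in siNC, less than the spread apart, and of 469 ± 19.6 and 416 ± 11.9 FPKM in siYBX1 (SD, n = 3 each). The family sum was 1805 to 2011 FPKM in siNC and 1917 to 2017 FPKM in siYBX1. These ranges overlap, and the sum made up 0.456% to 0.491% of all FPKM in siNC and 0.466% to 0.475% in siYBX1.

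**Figure D1:**
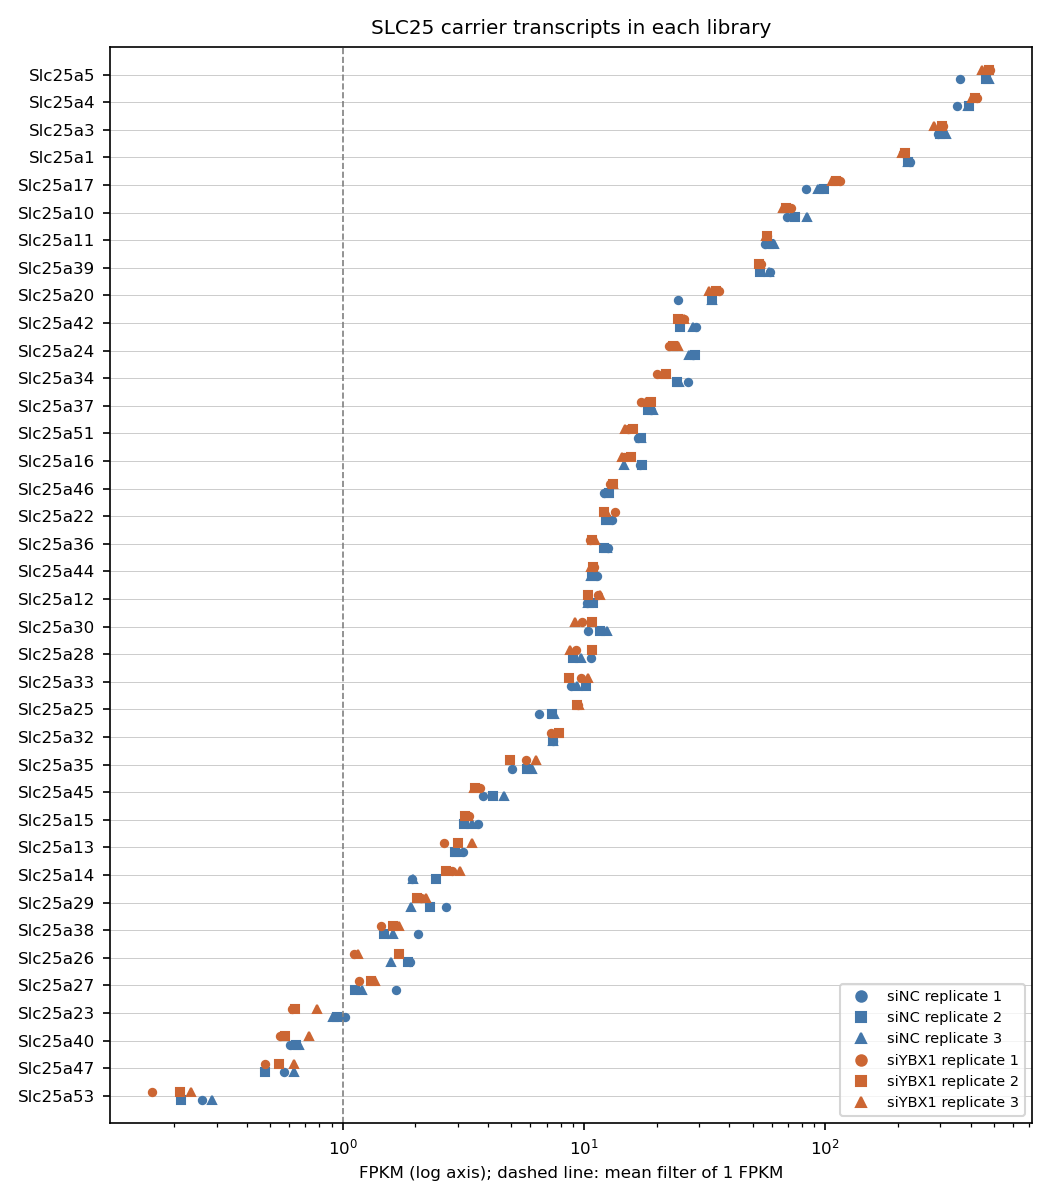
Level in FPKM on a log axis of 38 members with more than 2 reads in some library, 1 point per library (siNC in blue, siYBX1 in orange; circle, square and triangle for replicates 1, 2 and 3). Members run from Slc25a5 at the top to Slc25a53, and the groups lie close together for most of them.

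Carrier transcripts were then compared between siYBX1 and siNC to ask which of them differ when Ybx1 is low. Of the 44 members 35 passed the filter of a mean of at least 1 FPKM over the 6 libraries and were tested. Slc25a14, Slc25a17 and Slc25a25 rose and 4 members fell, among them Slc25a24, Slc25a34 and Slc25a36, at a Benjamini-Hochberg adjusted p below 0.05 over all genes tested (limma). These 7 are 20% of the tested members, beside 20.6% of all 10341 genes tested. By direction 8.57% of tested members were higher and 11.4% lower, beside 9.54% and 11.1% of all genes, shares close to those of all genes. Without siNC replicate 1 the number of members called lower was 6. Without siYBX1 replicate 1 the test called 1 member higher and 2 lower, and without siNC replicate 3 it called 2 lower. With TPM in place of FPKM 3 members were higher and 7 lower, while calls over all genes went from 987 higher and 1145 lower to 662 and 1573, and with quantile normalization 3 members were higher and 7 lower, against 959 and 1071 genes in all. For 12 members (34.3%) the 3 siYBX1 values were all above or all below the 3 controls, beside 40.9% of all genes, with siYBX1 higher for 5 (14.3%, beside 19.0%) and lower for 7 (20%, beside 21.9%). Differences in log2(FPKM + 1) of the members ran from -0.27 to 0.36, with a median of -0.032 against -0.011 over all genes tested. Of the 35 members 23 were negative. That scale understates changes at low levels. With a pseudocount of 0.1 Slc25a14 went from 0.32 to 0.43 and Slc25a26 from -0.27 to -0.42.

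**Figure D2:**
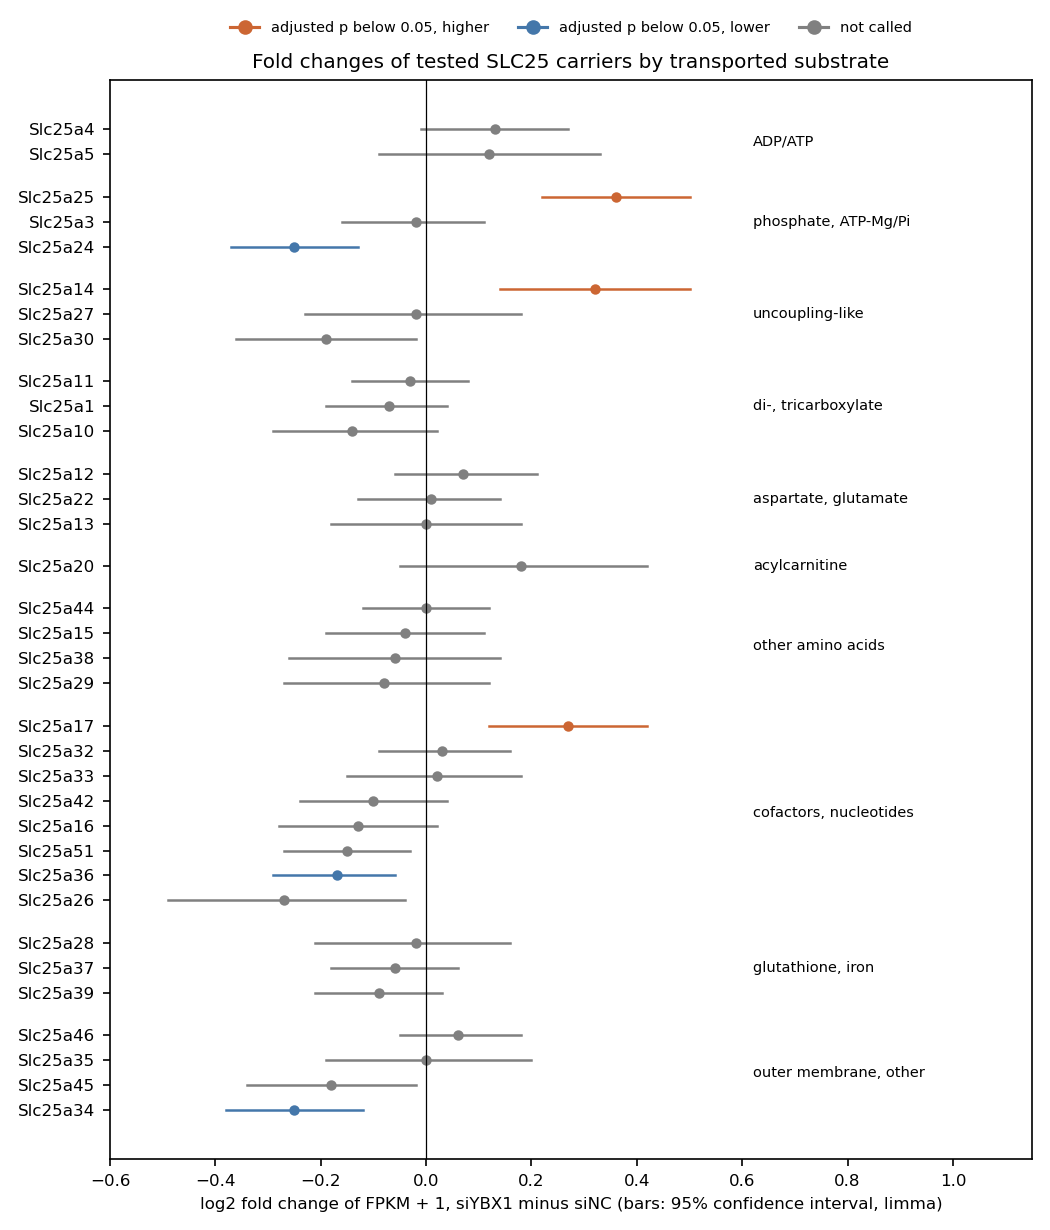
Log2 fold change of FPKM + 1 (siYBX1 minus siNC) of 34 tested members, grouped by substrate, with 95% confidence intervals from limma. The called rises (3, orange) and falls (3 drawn, blue) sit in 4 of the 10 groups, the phosphate and ATP-Mg, uncoupling-like, cofactor, and outer membrane and other groups, and the intervals of most other members include 0.

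Among the ATP-Mg/phosphate carriers 1 paralog rose and another fell. These carriers trade ATP-Mg for phosphate under control of cytosolic calcium and set the adenine nucleotide content of the matrix. Slc25a25 was at 6.49, 7.35 and 7.54 FPKM in siNC and at 9.41, 9.40 and 9.50 FPKM in siYBX1. Every siYBX1 library was above every control, and siNC replicate 1 was the lowest control. This was a difference of 0.36 on the log2(FPKM + 1) scale (SE 0.06, adjusted p = 0.00394, limma), and of 0.31 without siNC replicate 1. Its paralog Slc25a24 was at 28.2, 28.9 and 27.3 FPKM in siNC and at 22.5, 23.4 and 24.6 FPKM in siYBX1. All controls lay above all siYBX1 libraries, and the difference in log2(FPKM + 1) was -0.25 (SE 0.05, adjusted p = 0.0102, limma). The remaining paralog, Slc25a23, was too low for the filter, with 1.02, 0.946 and 0.916 FPKM in siNC and 0.614, 0.636 and 0.779 FPKM in siYBX1. These values do not overlap either, but they rest on only 74 to 134 reads per library. Without a filter it differed by -0.23 in log2(FPKM + 1) (adjusted p = 0.0459, limma). That scale understates changes at so low a level, where siYBX1 over siNC was 0.70. In voom on reads recovered from the FPKM steps Slc25a23 was tested but not called.

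As a description chosen after these values were seen, Slc25a25 made up 18.2%, 19.8% and 21.1% of the summed FPKM of the 3 paralogs in siNC and 29.0%, 28.1% and 27.2% in siYBX1. Slc25a24 remained the most abundant of them in each library. Their sum came to 36.2 ± 0.863 FPKM in siNC against 33.6 ± 1.23 FPKM in siYBX1 (SD, n = 3 each). Slc25a3, the phosphate carrier that supplies ATP synthase, was at 294, 299.8 and 316 FPKM in siNC and 308, 305 and 282 FPKM in siYBX1. The groups overlap, with a log2 fold change of -0.02 (95% confidence interval -0.16 to 0.11, adjusted p = 0.808, limma), against -0.16 with quantile normalization, where it passed (adjusted p = 0.0441).

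**Figure D3:**
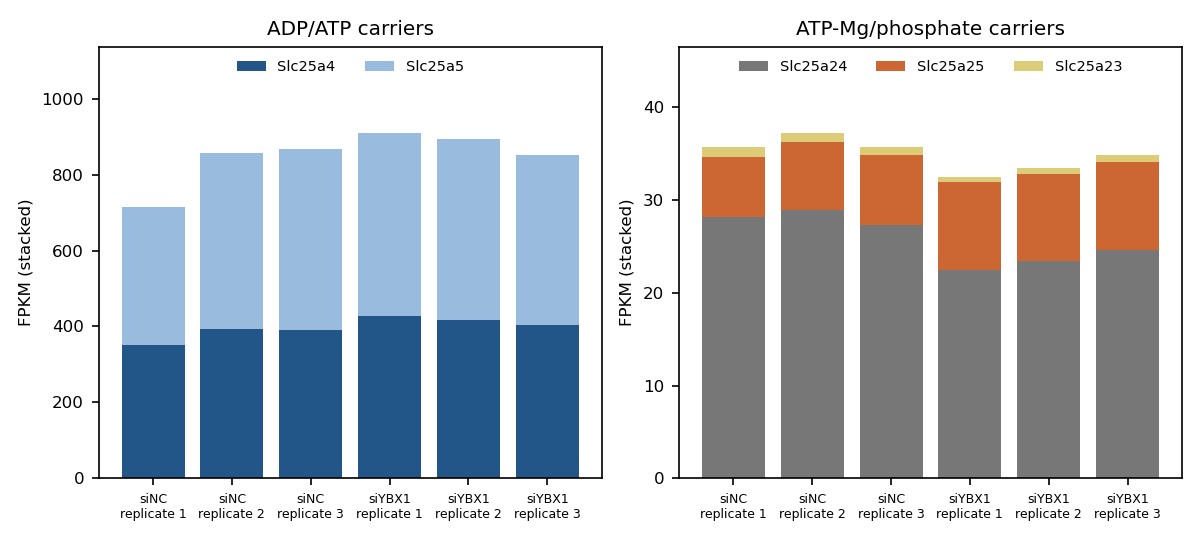
Stacked FPKM per library of the ADP/ATP carriers Slc25a4 and Slc25a5 (left) and of the ATP-Mg/phosphate carriers Slc25a24, Slc25a25 and Slc25a23 (right). The Slc25a25 block is taller and the Slc25a24 block shorter in all 3 siYBX1 libraries, while Slc25a4 keeps 45.2% to 49.3% of the left-hand stack in every library.

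Sequences upstream of the start sites are shown for 2 members that rose and 2 that fell, to show windows with and without CCAAT, the core of the Y-box after which Y-box binding proteins were named. Each is the 250 bases before an annotated start in RefSeq (build GRCm38.p6), 5′ to 3′ on the strand of the gene, with CCAAT or its reverse complement ATTGG in capitals.
Slc25a25 (chr2:32451471-32451720, minus strand, higher, the most upstream of 3 annotated starts): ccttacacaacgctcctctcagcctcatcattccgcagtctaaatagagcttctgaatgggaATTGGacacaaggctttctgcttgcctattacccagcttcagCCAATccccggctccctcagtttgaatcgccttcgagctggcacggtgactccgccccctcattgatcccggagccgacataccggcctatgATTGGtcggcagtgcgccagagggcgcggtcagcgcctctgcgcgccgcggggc
Slc25a17 (chr15:81360766-81361015, minus strand, higher): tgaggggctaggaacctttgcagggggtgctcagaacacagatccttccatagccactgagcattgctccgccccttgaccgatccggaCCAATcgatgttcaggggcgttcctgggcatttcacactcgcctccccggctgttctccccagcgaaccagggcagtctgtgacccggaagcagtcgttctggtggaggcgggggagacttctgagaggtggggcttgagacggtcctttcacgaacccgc
Slc25a24 (chr3:109122899-109123148, plus strand, lower): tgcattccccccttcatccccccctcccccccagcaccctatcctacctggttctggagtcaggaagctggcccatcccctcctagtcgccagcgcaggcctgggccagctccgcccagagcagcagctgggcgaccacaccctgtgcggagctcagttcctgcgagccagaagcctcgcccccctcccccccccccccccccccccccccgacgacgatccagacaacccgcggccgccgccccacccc
Slc25a34 (chr4:141623835-141624084, minus strand, lower): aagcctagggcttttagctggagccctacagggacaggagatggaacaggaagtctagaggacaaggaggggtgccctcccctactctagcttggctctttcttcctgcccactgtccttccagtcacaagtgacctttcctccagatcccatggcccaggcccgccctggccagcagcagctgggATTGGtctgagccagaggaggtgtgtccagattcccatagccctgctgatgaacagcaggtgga
Slc25a25 holds the motif 3 times in this window, 188, 146 and 54 bases before the start. Its other 2 windows hold it 2 times and 1 time, and the deposited values do not tell which start was used. Slc25a17 holds it once, 161 bases before the start, and Slc25a34 once, 64 bases before. The Slc25a24 window has no match. RefSeq windows were matched by symbol for 34 of 44 members, tested or not, and CCAAT on either strand was found for 18 of these (52.9%). Beside this stand 37.5% of all 27025 genes with a window and 41.4% of the 8357 tested genes with a window. Counted per window, the motif was found in 33.8% of all 32851 windows. Genes with several starts have several windows. Among the 6 called members with a window it was found for 4, which include members of either direction. Of those not printed, Slc25a14 (higher) has no match in any of its 3 windows. Slc25a36 (lower) has 1 match, 142 bases before the start. The cAMP response element TGACGTCA was found for Slc25a25 (in its most downstream window) and Slc25a36. That is 5.88% of members with a window, beside 1.77% of all genes and 3.14% of tested genes. The NRF1 element, a palindrome of GCGCA followed by its reverse complement, was found in no member window. It was found for 0.877% of all genes and 2.06% of tested genes. All motifs were searched on both strands, none contains another, and a match only describes these windows.

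The ADP/ATP carriers, which export ATP from the matrix in exchange for ADP, were the most abundant members. Slc25a4 was at 352, 394 and 392 FPKM in siNC and at 427, 416 and 404 FPKM in siYBX1. The groups did not overlap, but the log2 fold change of 0.13 (SE 0.06) did not pass (adjusted p = 0.158, limma), and it was 0.08 without siNC replicate 1. Slc25a5 was at 363, 464 and 475 FPKM in siNC and at 482, 479 and 447 FPKM in siYBX1. Its low control was again siNC replicate 1, and its log2 fold change went from 0.12 (adjusted p = 0.385, limma) to -0.00 without it. After a correction for gene length the log2 fold changes of Slc25a4 and Slc25a5 were 0.07 and 0.05. With quantile normalization they were 0.06 and 0.04. Slc25a4 made up 49.3%, 45.9% and 45.2% of both carriers in siNC and 47.0%, 46.4% and 47.5% in siYBX1, a difference in means of 0.171 percentage points (exact two-sided permutation test, p = 0.90, where 0.1 is the smallest p that 3 against 3 libraries allow). In transcript annotation 33.8% of the 50-base words of Slc25a5 also occur in transcripts of 9 other genes, so its value may include or lack shared reads. Slc25a4 shares no such word with another gene, and no pair of members shares any.

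Of the uncoupling-protein-like carriers, Slc25a14 rose and the other two did not pass. Slc25a14 was at 1.93, 2.43 and 1.95 FPKM in siNC and at 2.84, 2.67 and 3.06 FPKM in siYBX1, without overlap. It differed by 0.32 in log2(FPKM + 1) (SE 0.08, adjusted p = 0.0208, limma). It rested on 131 to 199 reads per library, for which counting error alone is 8.38% of the mean in siNC and 7.32% in siYBX1. The call was lost without siNC replicate 3 (adjusted p = 0.0757), without siYBX1 replicate 1 (0.0549) or without siYBX1 replicate 3 (0.0680), with no filter (0.0769), and in voom on reads recovered from the FPKM steps (0.0515). Slc25a30 had a log2 fold change of -0.19 (adjusted p = 0.0975, limma) and passed without siNC replicate 1 (-0.25, adjusted p = 0.0315) and with TPM (-0.25, adjusted p = 0.0369). Slc25a27, at 1.13 to 1.66 FPKM, had a log2 fold change of -0.02.

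Carriers of citrate and other carboxylates were among the abundant members and none of 3 tested was called. Slc25a1, which exports citrate to the cytosol for fatty acid and sterol synthesis, was at 225, 220.2 and 220.5 FPKM in siNC and at 209.7, 215 and 208 FPKM in siYBX1. The groups did not overlap, yet the log2 fold change was only -0.07 (95% confidence interval -0.19 to 0.04, adjusted p = 0.309, limma). With quantile normalization it passed at -0.19 (adjusted p = 0.0343). Slc25a10, which exchanges malate or succinate for phosphate, was at 69.7, 75.2 and 84.3 FPKM in siNC and 72.0, 68.6 and 67.0 FPKM in siYBX1. Its groups overlap (log2 fold change -0.14, adjusted p = 0.178, limma), and without siNC replicate 1 it passed at -0.20 (adjusted p = 0.0344), as it did with TPM (-0.19, adjusted p = 0.0484) and quantile normalization (-0.20, adjusted p = 0.0477). Slc25a11, the oxoglutarate/malate carrier, was at 56.0, 58.5 and 61.1 FPKM in siNC and 57.3, 57.5 and 56.9 FPKM in siYBX1. The siYBX1 values lie within the range of the controls.

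The other arm of the malate-aspartate shuttle, the aspartate/glutamate carriers Slc25a12 and Slc25a13, had log2 fold changes of 0.07 and -0.00, and the glutamate carrier Slc25a22 one of 0.01, with no call among the 3 (adjusted p of 0.405, 0.981 and 0.954, limma). Slc25a20, the carnitine/acylcarnitine carrier that admits long-chain fatty acids for oxidation, was at 24.6, 34.0 and 33.9 FPKM in siNC and at 36.4, 35.1 and 32.9 FPKM in siYBX1. All libraries but siNC replicate 1 lay within 32.9 to 36.4 FPKM, and the log2 fold change of 0.18 (adjusted p = 0.238, limma) became 0.03 without that library. Some of its transcript words (5.61%) also occur in other genes.

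None of 4 tested carriers of other amino acids was called. Slc25a44, a carrier of branched-chain amino acids studied in brown fat, was at 11.3, 10.8 and 10.7 FPKM in siNC and 11.0, 10.9 and 10.7 FPKM in siYBX1. The 95% confidence interval of its log2 fold change was -0.12 to 0.12. Slc25a15 (ornithine), Slc25a38 (glycine for haem synthesis) and Slc25a29 (basic amino acids) had log2 fold changes of -0.04, -0.06 and -0.08.

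**Figure D4:**
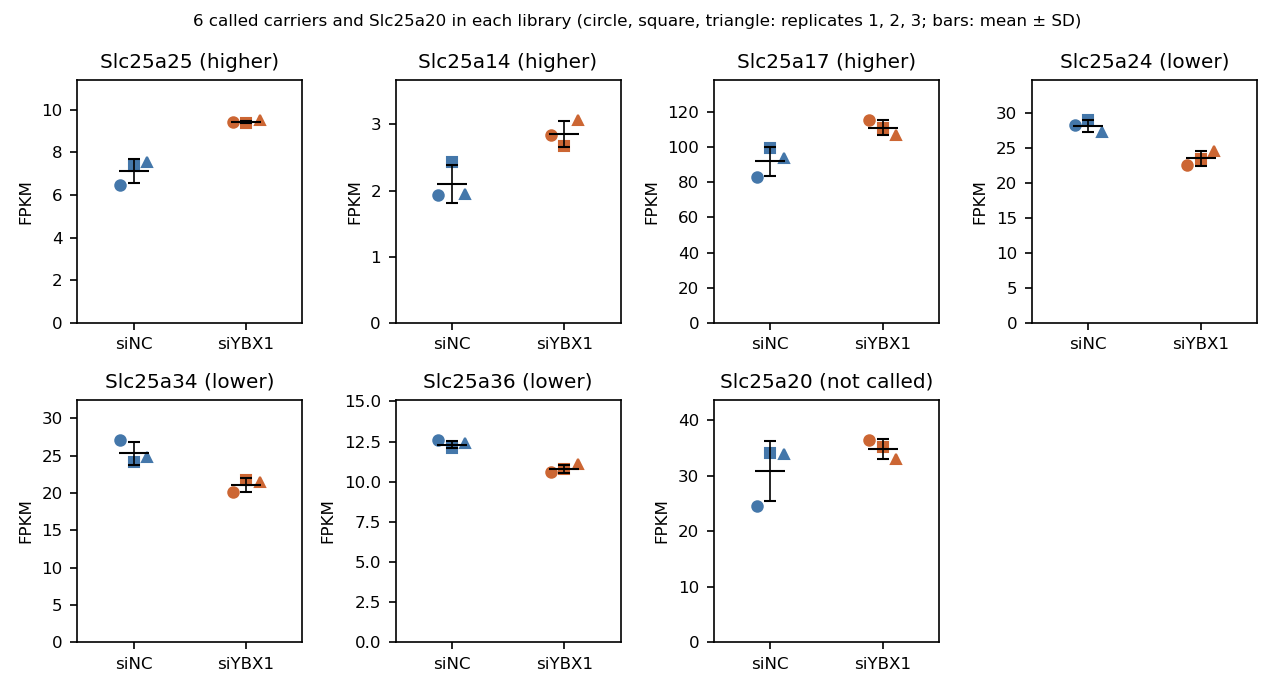
FPKM in each library of 6 called members and of Slc25a20, with mean and SD per group (3 libraries each, axes from 0). The groups do not overlap for these 6 called members, while for Slc25a20 siNC replicate 1 at 24.6 FPKM lies apart from the other 5 libraries.

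Carriers of cofactors and nucleotides held 3 of the 7 calls, 1 higher and 2 lower of 9 tested, in a comparison that called 20.6% of all genes. Slc25a17, a peroxisomal carrier of CoA, FAD and NAD and so not a mitochondrial protein, was at 82.9, 99.2 and 93.6 FPKM in siNC and at 115, 110.5 and 107 FPKM in siYBX1. Every siYBX1 library exceeded every control, with siNC replicate 1 again lowest. The difference in log2(FPKM + 1) came to 0.27 (SE 0.07, adjusted p = 0.0199, limma), and to 0.20 without siNC replicate 1. The call was lost without siYBX1 replicate 1 (0.24, adjusted p = 0.0762) or siYBX1 replicate 2 (0.27, adjusted p = 0.0594), and with no filter (adjusted p = 0.0763).

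Slc25a36, a carrier of pyrimidine nucleotides, was at 12.6, 12.1 and 12.4 FPKM in siNC and at 10.6, 10.8 and 11.1 FPKM in siYBX1. The groups were separate, but the fall of 0.17 on the log2 scale was close to the threshold (adjusted p = 0.0424, limma). Leaving out any single library ended that call, with log2 fold changes of -0.19 to -0.16 and so about as large, and after a correction for gene length the value was -0.11 (adjusted p = 0.12). In transcript annotation 6.70% of the 50-base words of Slc25a36 also occur in Gm13217, so its value may include or lack shared reads. The recovered length of the gene was 7427 bases. The longest 20% of tested genes had a median log2 fold change of -0.067 against 0.079 in the shortest 20%, and the part of length in the value for Slc25a36 was not tested beyond that correction.

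Slc25a33, the other pyrimidine nucleotide carrier of the family, had a log2 fold change of 0.02, and the difference between the paralogs was not tested. Slc25a51, which imports NAD, was lower in each siYBX1 library (15.2, 15.9 and 14.8 FPKM) than in each control (16.8, 17.2 and 17.3 FPKM) but did not pass (log2 fold change -0.15, adjusted p = 0.0658, limma), except with TPM (-0.21, adjusted p = 0.0254). Slc25a26, which imports S-adenosylmethionine, differed by -0.27 in log2(FPKM + 1) with a wide interval of -0.49 to -0.04 (adjusted p = 0.0837, limma). It rested on 80 to 149 reads per library. It passed without siYBX1 replicate 2 (-0.38, adjusted p = 0.0227), whose value of 1.71 FPKM lay among the controls. Slc25a16 and Slc25a42, both linked to CoA transport, were at -0.13 and -0.10, and the folate and FAD carrier Slc25a32 at 0.03.

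Of the glutathione and iron carriers none passed. Slc25a39, a glutathione carrier, was at 59.1, 53.6 and 58.5 FPKM in siNC and at 54.4, 52.9 and 53.4 FPKM in siYBX1, with a log2 fold change of -0.09 (adjusted p = 0.263, limma). The ranges overlap through siNC replicate 2. The mitoferrins Slc25a37 and Slc25a28, which import iron, had log2 fold changes of -0.06 and -0.02. Slc25a37 made up 63.9% to 67.3% of the pair in siNC and 63.6% to 67.4% in siYBX1. Of its 50-base transcript words 6.99% also occur in Gm16867.

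Among outer membrane and little-characterised members Slc25a34, a carrier whose substrate is not settled, fell. It was at 27.1, 24.2 and 24.8 FPKM in siNC and at 20.1, 21.8 and 21.5 FPKM in siYBX1, with no overlap. It differed by -0.25 in log2(FPKM + 1) (SE 0.06, adjusted p = 0.0153, limma), and it was -0.20 without siNC replicate 1. The call was lost without siYBX1 replicate 1 (-0.22, adjusted p = 0.0664). Slc25a46, an outer membrane protein that takes part in mitochondrial dynamics, was at 12.1 to 12.7 FPKM in siNC and 12.8 to 13.2 FPKM in siYBX1 (log2 fold change 0.06, adjusted p = 0.410). Slc25a45 had a log2 fold change of -0.18 and passed without siNC replicate 1 (-0.24, adjusted p = 0.0428), and Slc25a35 one of 0.00. The exons of Slc25a35 overlap those of Rangrf on the opposite strand over 31.3% of their bases. Whether counting used strand is not given in the sources used here, so its value may include reads of that gene.

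Slc25a23 and 8 other members lay below the filter. Slc25a2, Slc25a18, Slc25a21, Slc25a43 and Slc25a48 had at most 2 reads in any library, no more than a count of 0 allows (3 reads, counting error only), so no difference could be detected in them at this depth. They include the second ornithine carrier, the second glutamate carrier and the oxodicarboxylate carrier. Slc25a40, the paralog of Slc25a39, was at 0.549 to 0.725 FPKM over the 6 libraries, Slc25a47 at 0.475 to 0.631 FPKM and Slc25a53 at 0.162 to 0.287 FPKM, with overlapping groups in each case.

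**Figure D5:**
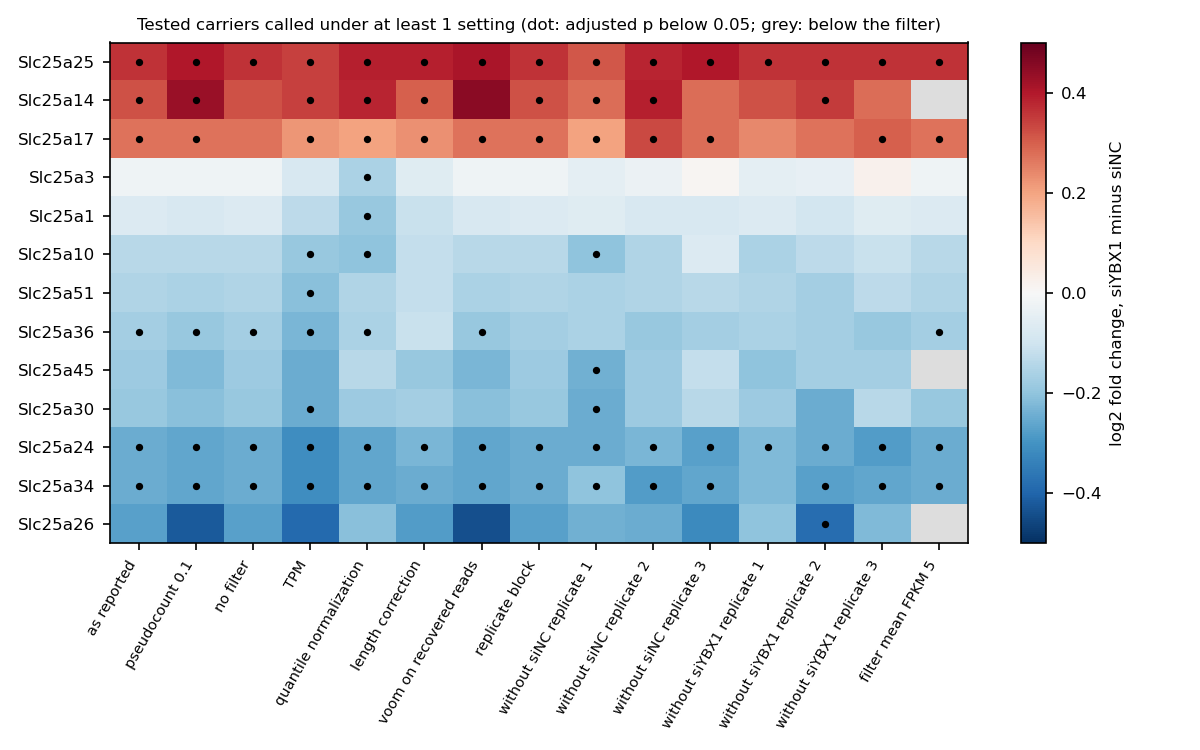
Log2 fold change (colour) of tested members that were called under at least 1 setting, by processing setting, with a dot where the adjusted p was below 0.05. Slc25a25 and Slc25a24 carry a dot in every column, Slc25a34 in all but 1, and Slc25a36 in 7 of 15.

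Of 41 genes in 4 lists of neighbouring functions 40 were tested, and 4 rose (beside 9.54% of all genes) and none fell (beside 11.1%), while with TPM 3 of them rose and 3 fell, and without siYBX1 replicate 1 only 2 rose. The lists hold family members with other names, carrier import, other inner membrane transporters, and outer membrane channels. Mtch2, an outer membrane insertase that descends from the SLC25 family, was at 84.4, 96.2 and 95.2 FPKM in siNC and 117, 107 and 100.1 FPKM in siYBX1 (log2 fold change 0.23, adjusted p = 0.0423, limma). The groups do not overlap, but the call held in only 5 of 14 alternatives and was lost without siNC replicate 1, siNC replicate 3, siYBX1 replicate 1 or siYBX1 replicate 2. The uncoupling protein gene Ucp3 was at 4.48 ± 0.199 and 3.93 ± 0.0714 FPKM (SD, n = 3 each, adjusted p = 0.104, limma).

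In the import pathway that inserts these carriers, 2 of 13 genes rose, beside 9.54% of all genes. Tomm22, a receptor of the outer membrane translocase, was at 87.2, 92.4 and 92.0 FPKM in siNC and at 111, 110.0 and 104 FPKM in siYBX1 (log2 fold change 0.26, adjusted p = 0.00741, limma). Timm10b, a small translocase subunit that delivers carriers to the TIM22 complex, was at 17.4, 18.8 and 20.4 FPKM in siNC and at 23.3, 23.3 and 22.7 FPKM in siYBX1 (log2 fold change 0.28, adjusted p = 0.0102). Neither set of values overlaps. Both passed in all 14 alternatives, though the log2 fold change of Tomm22 was 0.16 after the correction for gene length.

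None of 19 other inner membrane transporters was called, beside 20.6% of all genes. They include the pyruvate carrier subunits Mpc1 and Mpc2 (log2 fold changes 0.11 and 0.09, adjusted p of 0.520 and 0.447, limma), sideroflexins and the calcium uniporter. Sfxn1, a sideroflexin, had a log2 fold change of -0.16 (adjusted p = 0.0521, limma). It passed with TPM, quantile normalization, voom or the 5 FPKM filter, and without siNC replicate 1. Abcb8 (-0.23, adjusted p = 0.0563, limma) passed with TPM, without siNC replicate 2 and without siYBX1 replicate 3. Smdt1 went the other way (0.17, adjusted p = 0.0653, limma) and passed in no alternative. Mpc1 was at 76.5, 106 and 101 FPKM in siNC and at 113, 94.7 and 96.6 FPKM in siYBX1, and Mpc2 at 94.6, 106 and 117 FPKM and at 119.6, 117 and 102 FPKM. Both overlap between groups, with siNC replicate 1 lowest. Among 5 outer membrane channel and pore genes the voltage-dependent anion channel Vdac2 rose from 150.3 ± 1.66 to 177 ± 9.86 FPKM (SD, n = 3 each; log2 fold change 0.24, adjusted p = 0.0142, limma). In its libraries it was at 148, 152 and 151 FPKM in siNC and at 189, 172 and 171 FPKM in siYBX1, with no overlap. The call held in 11 of 14 alternatives and was lost without siYBX1 replicate 1 (log2 fold change 0.19), with quantile normalization (0.13, adjusted p = 0.0963) and with the replicate block (0.24, adjusted p = 0.0538).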

How the data were processed

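Libraries were made from 1.3 µg of Trizol-extracted total RNA each, per the labels' protocols. The authors deposited a table of FPKM values. Tools named in the submitters' processing notes are HISAT2, HTSeq and fastp, with GRCm39 as build; their settings, the annotation and the handling of shared reads are not given in the sources used here. Columns were matched to samples by group name and number.

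FPKM values move in steps of 1 read. Library totals were sought that turn the steps into whole reads, with exon lengths of GENCODE vM21 (on GRCm38, another build). For each gene the smallest length that gave whole reads was then taken, and 1 was found for 99.994% of genes (tolerance 0.02 reads). That share is no check of annotated lengths. Recovered lengths can differ from them (for Slc25a40 23421 against 8386 exonic bases), and read numbers are those of the smallest length that fits. A single read on a 2 kb gene equals 0.0141 to 0.0156 FPKM.

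The test was limma (version 3.58.1 in R 4.3.3) on log2(FPKM + 1) with its trend option, two-sided, without covariates, for genes whose mean was 1 FPKM or more, with Benjamini-Hochberg adjustment over all of them at 0.05. Fold changes on that scale understate those of low values. The scripts were run on simulated reads that held no deviating library and no length trend. There 76% of 50 genes changed 1.25-fold were called, and 96% to 100% of those changed 1.5-fold to 3-fold. Of 195 calls 9 were false. Changes smaller than 1.25-fold were not simulated. Alternatives were a pseudocount of 0.1, no filter or a mean of 5 FPKM or more, TPM, quantile normalization, a loess correction for length (span 0.3), voom on recovered reads (mean of 10 or more), a replicate block, and leaving out each library.

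The members and lists were chosen with earlier results of these data known. Values in every library are given for called members, the 8 most abundant and Slc25a1, Slc25a20, Slc25a25 and Slc25a44, and of the neighbouring lists for called genes, or for the 2 most abundant of a list with none. Those of Slc25a23, Slc25a51, Cd68, Ucp3 and the paralog shares were added after their values were seen. The results of Plin1, Sfxn1, Abcb8 and Smdt1 were added in the same way. A called member of the family is counted but not reported here. Python 3.11.15 was used (pandas 2.3.3, scipy 1.17.1).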

Additional observations from a re-analysis of the deposited data

How the results depend on the processing

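Slc25a25 and Slc25a24 passed in all 14 alternatives, with log2 fold changes of 0.31 to 0.41 and -0.31 to -0.22. The number of members called higher was 3, against 1 with no filter and 1 to 3 with a library left out. The number called lower was 4, against 7 with TPM (where all calls split into 662 higher and 1573 lower), 7 with quantile normalization and 2 to 6 with a library left out. The added falls with TPM were Slc25a10, Slc25a30 and Slc25a51, and with quantile normalization Slc25a1, Slc25a3 and Slc25a10. Same-numbered libraries did not deviate together (correlations of -0.306, -0.131 and -0.246). With 3 libraries per group these correlations cannot decide whether the numbers pair the libraries, and the labels state no pairing. With the replicate block 3 members were higher and 3 lower, and Slc25a36 was lost (adjusted p = 0.12). Over all genes 577 were called higher and 664 lower with no filter, 607 and 739 with the replicate block, and 547 to 970 higher and 604 to 1056 lower with a library left out, against 987 and 1145. Of the neighbouring lists 2 genes were higher with quantile normalization and 2 with the replicate block, and 2 to 4 with a library left out. Lower were 1 with the 5 FPKM filter, 3 with TPM (Sfxn1, Abcb8 and Tspo), 2 with quantile normalization, 1 after the length correction, 1 with voom, and 0 to 1 with a library left out. The members' median stayed between -0.084 and -0.001, and the difference of the family sum between -1.10% and 4.74%, around 2.53%. Differences in Slc25a4 share ran from -0.64 to 1.41 percentage points. The cause of these shifts was not tested. Reads were fewest for the 5 members with at most 2 per library.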
